A study of Mus musculus with 4 samples.

Results

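The 10 genes described here are Apoe, 7 further genes of lipid transport and metabolism in glial and other cells (Clu, Npc1, Npc2, Pla2g7, Abca1, Fabp7 and Fabp5), and the membrane protein gene Mmd2 and the asparaginase gene Asrgl1, which were listed with them. They were picked by name from a table of 13881 genes after the comparison of Rybp knockdown with control had been seen, because Apoe, Npc1 and Pla2g7 were much lower in the knockdown. Their differences are therefore descriptions, given with their errors and with no test. RNA was sequenced from neural progenitor cells (NPCs), the dividing cells that give rise to neurons and glia, dissected out of C57BL/6 mouse forebrain at embryonic day 14. The tested cells had received a lentivirus with a short hairpin RNA against Rybp (shRybp, 2 libraries), and the comparison cells are labelled as control (2 libraries), whose vector the sources used here do not name. Both groups grew in proliferation medium with 2% B27 lacking vitamin A and with the mitogens EGF and FGF-2 at 20 ng/ml each. The labels do not say that the 2 libraries of a group came from separate cultures or infections, so errors and p-values cover only library-to-library spread, possibly technical. The knockdown was partial: Rybp, which encodes a partner of Polycomb repressive complex 1, had 3.01 and 2.66 FPKM in the shRybp libraries, against 4.43 and 3.95 FPKM in the control libraries, a fitted level of 65.8% of control (log2 fold change -0.60, SE 0.12, edgeR adjusted p = 0.0017).

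Brain lipids move largely within the brain, because plasma lipoproteins do not readily cross the blood-brain barrier. Astrocytes and radial glia secrete apolipoprotein E particles, which the transporter Abca1 loads with cholesterol and phospholipid and which neurons and glia take up through lipoprotein receptors. Inside the cell, endocytosed cholesterol leaves the lysosome through the paired action of Npc2 and Npc1, and fatty acid binding proteins such as Fabp7, a classical radial glia gene, carry fatty acids through the cytosol.

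Total counts were 14355308 and 16400480 in the shRybp libraries, against 17598873 and 15938646 in the control libraries. In the edgeR fit over 12062 genes with a mean FPKM (reads per gene length and library size) of at least 1, 2013 genes (16.7%) fell and 1970 (16.3%) rose in shRybp at an adjusted p under 0.05. Libraries of different groups shared a signal of mature oligodendrocytes. The myelin genes Mog and Mag were between 1.54 and 2.07 FPKM in shRybp 1 and control 2, and at most 0.07 FPKM in shRybp 2 and control 1. Since shRybp 1 and control 2 carry this signal and the others have little of it, each member's difference is also given between like libraries alone, a comparison chosen after seeing the data.

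Astrocyte markers moved with the members. All 14 tested genes of a 15-gene astrocyte list fell, with a median log2 fold change of -0.87 and a summed level of 684 and 721 FPKM in the shRybp libraries, against 1257 and 1303 FPKM in the control libraries. Gfap, the astrocyte intermediate filament, had a log2 fold change of -1.83 (SE 0.10, adjusted p = 2.0e-07), and the water channel Aqp4 had -1.25 (SE 0.09, adjusted p = 8.5e-07). The radial glia list did not move one way: of 10 tested genes 3 rose, among them Nes (0.67, SE 0.07, adjusted p = 1.0e-05), and 3 fell, among them Hes5 (-1.79, SE 0.11, adjusted p = 2.6e-07). The count of radial glia genes that rose was 1 without shRybp 2 and 1 without control 2. Of 8 tested oligodendrocyte lineage genes 3 fell, the precursor genes Pdgfra, Sox10 and Gpr17, and none rose (1 rose without control 2). With the libraries left out in turn, the number that fell was 5 without shRybp 1, 4 without shRybp 2, 5 without control 1 and 3 without control 2. Markers of microglia, which also make Apoe, summed to 0.967 and 0.632 FPKM in the shRybp libraries, against 0.173 and 0.952 FPKM in the control libraries, with 10 of the 12 listed genes not analysed here. The endothelium and pericyte list summed to 3.12 and 2.65 FPKM in shRybp and 1.86 and 1.87 FPKM in control (8 of 11 genes not analysed here). The choroid plexus and ependyma list summed to 5.83 and 6.27 FPKM in shRybp and 6.78 and 6.96 FPKM in control (6 of 8 not analysed here). The neuron list summed to 70.8 and 64.1 FPKM in shRybp and 72.1 and 71.9 FPKM in control. Of its 5 tested genes 1 rose and 2 fell, and 1 fell under DESeq2. The part of the astrocyte and oligodendrocyte genes in the members' values was not tested. In RNA from whole cultures, fewer cells of a type and less RNA of a gene per cell cannot be told apart.

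Every member had a lower FPKM in both shRybp libraries than in both control libraries, a pattern found for 29.0% of all tested genes. By the fit 8 of the 10 fell, beside the 16.7% of all tested genes that fell, while Npc2 and Fabp5 did not pass the threshold. The members were chosen on this contrast, so nothing is read from either count, nor from the median and fold sizes that follow. The median log2 fold change of the members was -1.15, and that of all tested genes was 0.00. Differences of 2-fold or more separated 6 members (Apoe, Pla2g7, Mmd2, Npc1, Asrgl1 and Abca1), and 146 of all 12062 tested genes fell by as much. Clu and Fabp7 lay between 1.5-fold and 2-fold, and 587 of all tested genes fell by 1.5-fold or more. Together the members took 0.318% and 0.305% of all counts in the shRybp libraries, against 0.521% and 0.499% in the control libraries. The largest part was that of Fabp7, which alone took 0.184% and 0.169% in shRybp and 0.277% and 0.248% in control. Without Fabp7, the summed level of the other members was 337 and 343 FPKM in shRybp, against 668 and 679 FPKM in control.

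**Figure D1:**
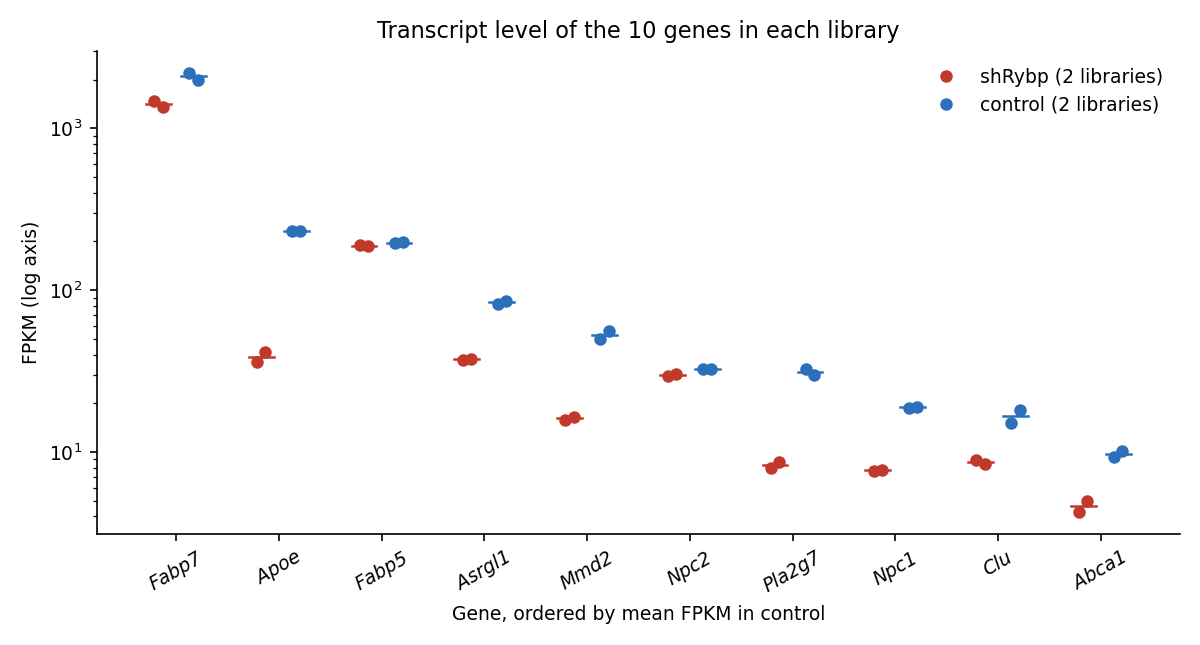
FPKM of each member (log axis) in the shRybp libraries and the control libraries, with 1 point per library and the members ordered by control level. The shRybp points lie below the control points for all 10 members, by the most for Apoe (36.1 and 41.6 against 233 and 231 FPKM) and by the least for Fabp5 (189.9 and 187 against 195 and 197 FPKM).

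The stretches just upstream of the start sites are shown for the 3 members with the largest differences, and for Abca1, whose window held the most kinds of motif searched. RefSeq promoter windows (GRCm38.p6, the mm10 assembly) were matched for 7 of the 10 members: Apoe, Npc2, Pla2g7, Abca1, Fabp7, Mmd2 and Asrgl1. Each sequence is the 250 bases before the RefSeq start, read 5′ to 3′ on the gene's strand, and capitals mark the motifs found, on either strand.
Apoe (chr7:19699189-19699438, minus strand): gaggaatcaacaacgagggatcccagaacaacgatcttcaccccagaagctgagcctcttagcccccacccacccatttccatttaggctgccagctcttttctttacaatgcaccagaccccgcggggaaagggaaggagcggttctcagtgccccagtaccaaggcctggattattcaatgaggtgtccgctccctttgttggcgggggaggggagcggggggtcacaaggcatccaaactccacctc
Pla2g7 (chr17:43568201-43568450, plus strand): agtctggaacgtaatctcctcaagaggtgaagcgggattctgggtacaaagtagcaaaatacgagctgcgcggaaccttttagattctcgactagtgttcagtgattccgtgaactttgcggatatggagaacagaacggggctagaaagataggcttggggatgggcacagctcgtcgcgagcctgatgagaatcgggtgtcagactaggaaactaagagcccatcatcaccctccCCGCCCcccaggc
Mmd2 (chr5:142608753-142609002, minus strand): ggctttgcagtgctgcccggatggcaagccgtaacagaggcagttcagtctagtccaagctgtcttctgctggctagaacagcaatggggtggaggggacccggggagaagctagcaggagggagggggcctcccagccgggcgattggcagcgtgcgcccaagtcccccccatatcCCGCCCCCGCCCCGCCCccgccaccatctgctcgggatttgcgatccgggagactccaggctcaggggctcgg
Abca1 (chr4:53159896-53160145, minus strand): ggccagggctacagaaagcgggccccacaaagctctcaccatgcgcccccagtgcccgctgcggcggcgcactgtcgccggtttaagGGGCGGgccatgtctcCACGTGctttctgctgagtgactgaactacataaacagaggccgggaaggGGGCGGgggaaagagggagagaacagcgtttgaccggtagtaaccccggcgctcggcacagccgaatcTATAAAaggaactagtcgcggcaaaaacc
The capitals in Pla2g7 and Mmd2, and at 2 places in Abca1, are GGGCGG or its reverse complement, the GC box. Mmd2 holds 3 copies that overlap or touch, between 73 and 57 bases before its start. Abca1 also holds an E-box (CACGTG) 147 to 142 bases and a TATAAA 29 to 24 bases before its start.

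GGGCGG was in 4 of the 7 member windows (Npc2, Pla2g7, Abca1 and Mmd2) and in 32.7% of all 32851 mouse windows. The 7 windows had a G and C content of 52.8% to 67.2%, above the median of 52.4% over all windows. The shares were not adjusted for this. CACGTG was in 1 of 7, that of Abca1, and in 6.02% of all windows. TATAAA was in the Abca1 window alone among the 7 and in 12.4% of all windows. TGGGAA, the core letters bound by the Notch effector Rbpj, was in the Fabp7 window alone among the 7 and in 21.6% of all windows. None of the 7 held TCACNCCAC, a sterol response element (1.05% of all windows). Nor did any hold an exact pair of AGGTCA 4 bases apart, an idealised liver X receptor site (0.02%). The same was true of TTGGC and GCCAA 5 bases apart, an idealised nuclear factor I site (0.04%). Sites that differ from these exact letters were not searched for. The windows, that of Abca1 among them, may therefore still hold sites for these factors. For Pla2g7 the RefSeq start is 353 bases inside the start of the gene as the count table gives it. A match of letters is a description of the window, and its absence says only that the letters are not in these 250 bases.

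Among the secreted carriers, Apoe had by far the larger difference. Apoe (mm10 chr7:19696109-19699188, minus strand), the main lipoprotein component made by astrocytes, had 36.1 FPKM in shRybp 1 and 41.6 FPKM in shRybp 2, against 233 FPKM in control 1 and 231 FPKM in control 2. The groups were far apart, and shRybp 1 was the lower of its pair. The fitted level in shRybp was 16.4% of control (log2 fold change -2.61, SE 0.07, 95% interval -2.77 to -2.45). Between like libraries the Apoe log2 difference was -2.53 for shRybp 2 over control 1 and -2.70 for shRybp 1 over control 2. In control cells Apoe ranked 108th in FPKM among the 12062 tested genes.

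Clu (chr14:65968483-65981547, plus strand) encodes clusterin, a second lipoprotein component and extracellular chaperone of astrocytes. Its level was 8.92 FPKM in shRybp 1 and 8.43 FPKM in shRybp 2, against 15.1 FPKM in control 1 and 18.1 FPKM in control 2. In each group Clu was the higher in the library with the mature oligodendrocyte transcripts. The Clu level in shRybp was 51.0% of control (log2 fold change -0.97, SE 0.10, 95% interval -1.19 to -0.76), and the like-library log2 differences were -0.89 without and -1.04 with those transcripts. The ratio of the Apoe to the Clu FPKM was 4.05 and 4.94 in the shRybp libraries, against 15.4 and 12.8 in the control libraries. The members were picked because Apoe was much lower in shRybp, among others, so nothing is read from this difference.

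Of 22 other listed apolipoprotein and lipoprotein remodelling genes, 16 were not analysed here and 5 were tested, of which 1 rose and 1 fell. Lcat, which esterifies cholesterol on secreted particles, fell, with 8.70 and 9.48 FPKM in shRybp against 13.9 and 15.6 FPKM in control (log2 fold change -0.73, SE 0.11, adjusted p = 3.8e-04). Lpl, which releases fatty acids from lipoproteins, rose, with 2.73 and 2.72 FPKM in shRybp against 1.60 and 1.74 FPKM in control (log2 fold change 0.67, SE 0.09, adjusted p = 1.6e-04). Values of the phospholipid transfer protein Pltp overlapped (log2 fold change 0.08 with a 95% interval of -0.51 to 0.67, adjusted p = 0.84). Apod, made by mature oligodendrocytes among other cells, was below the level for testing and followed the pattern of Mog and Mag, with 1.13 and 0.189 FPKM in shRybp against 0.154 and 0.826 FPKM in control.

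The receptors that take up Apoe particles moved in both directions. Of 9 tested receptors and receptor regulators, 4 rose and 2 fell, with a median log2 fold change of 0.09. Lrp8, an Apoe and reelin receptor, rose to 11.3 and 10.8 FPKM in shRybp, against 7.04 and 7.21 FPKM in control (log2 fold change 0.60, SE 0.06, adjusted p = 2.3e-05). The fatty acid and lipoprotein scavenger receptor Cd36 rose at a low level (4.07 and 3.44 FPKM in shRybp, 2.29 and 1.90 FPKM in control; log2 fold change 0.80, SE 0.15, adjusted p = 0.0016). Lrp1, a large endocytic receptor, fell to 12.8 and 14.7 FPKM in shRybp, against 16.8 and 20.2 FPKM in control (log2 fold change -0.46, SE 0.09, adjusted p = 0.0012). Vldlr values overlapped between groups, at 11.3 and 11.1 FPKM in shRybp and 9.88 and 12.1 FPKM in control (log2 fold change -0.01, 95% interval -0.19 to 0.18, adjusted p = 0.97). The number of receptor genes that fell was 1 without shRybp 2, without control 1 or without control 2.

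Abca1 (chr4:53030787-53159895, minus strand), the transporter that lipidates nascent Apoe, was the lowest expressed member in every library. It had 4.27 FPKM in shRybp 1 and 4.99 FPKM in shRybp 2, against 9.26 FPKM in control 1 and 10.2 FPKM in control 2. All shRybp values lay below all control values, with a fitted level of 46.6% of control (log2 fold change -1.10, SE 0.08, 95% interval -1.29 to -0.92). Between like libraries the Abca1 log2 difference was -0.94 for shRybp 2 over control 1 and -1.27 for shRybp 1 over control 2. Apoe exceeded Abca1 by 8.45 and 8.35 times in FPKM in the shRybp libraries, against 25.2 and 22.7 times in the control libraries.

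Of 10 other lipid transporters of the ABC family that were tested, 5 fell (beside 16.7% of all tested genes) and none rose, with a median log2 fold change of -0.29. This list was written with earlier results of these data known. Under DESeq2 3 of them fell, and 2 fell under limma and at a mean FPKM of at least 5. The number that fell was 3 without shRybp 1, without shRybp 2 or without control 2. Abcd2, which imports very long-chain fatty acyl-CoA into peroxisomes, fell to 3.25 and 2.44 FPKM in shRybp, against 6.35 and 5.82 FPKM in control (log2 fold change -1.14, SE 0.12, adjusted p = 2.1e-05). Its relative Abcd3 fell less (log2 fold change -0.44, SE 0.06, adjusted p = 1.8e-04). Abcg4, a sterol exporter of neural cells, had a log2 fold change of -0.43 (SE 0.12, adjusted p = 0.015), and Abca5 had -0.41 (SE 0.11, adjusted p = 0.013). These calls were lost at similar fold changes in other fits of the 4 libraries: under DESeq2 Abcg4 had -0.43 (adjusted p = 0.083) and Abca5 had -0.41 (adjusted p = 0.079). Abcg4 also missed the threshold without shRybp 1 (-0.41, adjusted p = 0.062), without shRybp 2 (-0.45, adjusted p = 0.061) and without control 2 (-0.33, adjusted p = 0.084), and Abca5 without shRybp 2 (-0.35, adjusted p = 0.12). Abcg1, the usual partner of Abca1 in cholesterol efflux, was too low to test, at 0.105 and 0.208 FPKM in shRybp and 0.187 and 0.146 FPKM in control.

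The Niemann-Pick pair, which hands cholesterol out of the lysosome, differed from each other. Npc1 (chr18:12189692-12236400, minus strand), the membrane transporter of the pair, had 7.65 FPKM in shRybp 1 and 7.71 FPKM in shRybp 2, against 18.7 FPKM in control 1 and 19.0 FPKM in control 2. The replicates were nearly equal and the groups far apart, with a fitted level of 39.8% of control (log2 fold change -1.33, SE 0.06, 95% interval -1.46 to -1.20). Npc2 (chr12:84754562-84773152, minus strand), the soluble sterol-binding protein of the pair, had 29.5 and 30.3 FPKM in shRybp, against 32.5 and 32.6 FPKM in control. The Npc2 values did not overlap, but the difference was small, at 89.6% of control (log2 fold change -0.16, SE 0.06, 95% interval -0.29 to -0.03), and it did not pass the threshold. The ratio of the Npc2 to the Npc1 level was 3.86 and 3.92 in the shRybp libraries, against 1.74 and 1.71 in the control libraries. Like-library log2 differences were -1.32 and -1.34 for Npc1 and -0.15 and -0.17 for Npc2, in the order without and with mature oligodendrocyte transcripts. The Npc1 annotation overlaps the end of Rmc1 on the opposite strand, whose mean level was 3.37 FPKM in shRybp and 3.43 FPKM in control, and reads in the overlap cannot be assigned without strand information.

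Genes of lysosomal and intracellular sterol transport moved both ways. Of 24 tested, 9 fell and 4 rose, with a median log2 fold change of -0.06. Scarb2, a lysosomal membrane protein with a lipid-binding tunnel, fell (log2 fold change -0.38, SE 0.06, adjusted p = 4.0e-04), as did the lysosomal membrane protein Lamp1 (-0.36, SE 0.06, adjusted p = 7.6e-04). Soat1, which esterifies cholesterol for storage, fell as well (log2 fold change -0.41, SE 0.10, adjusted p = 0.0056), a call that limma lost (-0.32 with a pseudocount of 1, adjusted p = 0.06). Osbpl10, an oxysterol-binding protein relative, rose (0.56, SE 0.11, adjusted p = 0.0023). Lipa, the acid lipase that frees cholesterol in the lysosome, had 3.38 and 3.88 FPKM in shRybp and 3.53 and 3.57 FPKM in control, with overlapping values (log2 fold change 0.00, 95% interval -0.20 to 0.20, adjusted p = 1). The count that fell was 6 without shRybp 2 or without control 2, and 4 under limma.

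Of 16 tested regulators and targets of the sterol-sensing factors LXR and SREBP, 7 rose and 1 fell, with a median log2 fold change of 0.17. The number that rose was 3 without shRybp 2. Among those that rose were Rxra, the partner receptor of LXR (6.60 and 8.0 FPKM in shRybp, 3.91 and 4.20 FPKM in control; log2 fold change 0.82, SE 0.10, adjusted p = 9.0e-05), and Arl4c, an LXR target (0.37, SE 0.07, adjusted p = 0.0021). Srebf1, the fatty acid synthesis regulator, had a log2 fold change of 0.29 (SE 0.09, adjusted p = 0.024), a call that was lost without shRybp 2 (0.14, adjusted p = 0.27) and without control 1 (adjusted p = 0.1). Srebf2, the regulator of cholesterol synthesis, did not pass (0.06, 95% interval -0.08 to 0.20, adjusted p = 0.51). The gene that fell was Scd2, a fatty acid desaturase named after its value was seen (-0.21), and it missed the threshold when any 1 library was left out (adjusted p = 0.063 to 0.15). Of the LXR genes themselves, Nr1h2 did not pass (log2 fold change 0.15, 95% interval -0.07 to 0.36, adjusted p = 0.29), and Nr1h3 was too low to test, at 0.221 and 0.46 FPKM in shRybp and 0.586 and 0.722 FPKM in control.

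Of the fatty acid binding proteins, Fabp7 was the most abundant member in every library, and both had smaller log2 fold changes than Apoe. Fabp7 (chr10:57784881-57788450, plus strand), the brain form, ranked 8th of the 12062 tested genes in control FPKM. It had 1468 FPKM in shRybp 1 and 1351 FPKM in shRybp 2, against 2209.6 FPKM in control 1 and 1982 FPKM in control 2. The groups did not overlap, and the fitted Fabp7 level was 65.6% of control (log2 fold change -0.61, SE 0.08, 95% interval -0.78 to -0.44). Between like libraries the Fabp7 log2 difference was -0.76 for shRybp 2 over control 1 and -0.46 for shRybp 1 over control 2. Because Fabp7 was so abundant, that smaller fold was a larger loss in FPKM than that of the other members together.

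Fabp5 (chr3:10012548-10016607, plus strand), the epidermal form that neural progenitors also carry, had 189.9 FPKM in shRybp 1 and 187 FPKM in shRybp 2, against 195 FPKM in control 1 and 197 FPKM in control 2. It stood at 93.9% of control and did not pass the threshold (log2 fold change -0.09, SE 0.06, 95% interval -0.22 to 0.04). The like-library log2 differences of Fabp5 were -0.10 for shRybp 2 over control 1 and -0.08 for shRybp 1 over control 2. The ratio of Fabp7 to Fabp5 FPKM was 7.73 and 7.21 in the shRybp libraries, against 11.3 and 10.1 in the control libraries. In control cells Apoe stood above Fabp5, and in shRybp cells Fabp5 stood above Apoe, with no overlap of their libraries in either group.

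Of 23 tested genes for fatty acid binding, uptake, activation and storage outside the members, 5 fell and 2 rose, with a median log2 fold change of -0.14. Mgll, which breaks down monoacylglycerols including an endocannabinoid, fell to 4.49 and 4.70 FPKM in shRybp, against 11.8 and 14.7 FPKM in control (log2 fold change -1.56, SE 0.11, adjusted p = 7.3e-07). Acsl1, an acyl-CoA synthetase, rose at a low level, with 1.43 and 1.31 FPKM in shRybp against 0.66 and 0.621 FPKM in control (log2 fold change 1.05, SE 0.14, adjusted p = 1.2e-04). Scp2, a lipid transfer protein of peroxisomes, fell (-0.51, SE 0.07, adjusted p = 1.2e-04). Acsbg1, a glial acyl-CoA synthetase, did not pass, at 109 and 118 FPKM in shRybp and 122 and 122 FPKM in control (-0.14, 95% interval -0.28 to -0.01, adjusted p = 0.099). Pmp2, the myelin fatty acid binding protein, was not analysed here.

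Pla2g7 (chr17:43568098-43612201, plus strand) encodes a secreted phospholipase that inactivates platelet-activating factor and oxidized phospholipids and travels on lipoproteins. It had 7.95 FPKM in shRybp 1 and 8.61 FPKM in shRybp 2, against 32.5 FPKM in control 1 and 29.98 FPKM in control 2. The groups were far apart, and the fitted Pla2g7 level was 25.9% of control, second to Apoe among the members (log2 fold change -1.95, SE 0.09, 95% interval -2.14 to -1.76). The like-library log2 differences were -1.96 for shRybp 2 over control 1 and -1.94 for shRybp 1 over control 2, so the value was nearly the same with and without the mature oligodendrocyte transcripts. The annotation has an antisense RNA within Pla2g7, which was not analysed here.

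Of 13 tested phospholipase A2, platelet-activating factor and lysophospholipid enzymes, 4 fell and 2 rose, with a median log2 fold change of -0.05. Enpp2, the secreted enzyme autotaxin that makes lysophosphatidic acid, fell to 8.41 and 7.37 FPKM in shRybp, against 17.8 and 19.0 FPKM in control (log2 fold change -1.26, SE 0.08, adjusted p = 4.7e-07). Plpp3, a membrane phosphatase that degrades lysophosphatidic acid and is enriched in astrocytes, fell to 93.8 and 98.3 FPKM in shRybp, against 154 and 163 FPKM in control (-0.76, SE 0.06, adjusted p = 2.9e-06). Lpcat1, which remakes phosphatidylcholine, fell less (-0.38, SE 0.06, adjusted p = 4.9e-04). The intracellular phospholipase Pla2g6 rose (0.45, SE 0.10, adjusted p = 0.0047), though not without shRybp 2 (0.30, adjusted p = 0.083). The number of these enzymes that rose was 4 without shRybp 1, 1 without shRybp 2 and 3 without control 2.

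Mmd2 (chr5:142562358-142608800, minus strand) is a member of the PAQR family of membrane proteins, which also holds the adiponectin and membrane progestin receptors. It had 15.9 FPKM in shRybp 1 and 16.4 FPKM in shRybp 2, against 49.8 FPKM in control 1 and 56.2 FPKM in control 2. The groups did not overlap, and the fitted level was 29.7% of control (log2 fold change -1.75, SE 0.07, 95% interval -1.90 to -1.60). Its like-library log2 differences were -1.65 for shRybp 2 over control 1 and -1.85 for shRybp 1 over control 2. Values of the close relative Mmd overlapped between groups, with 5.51 and 5.78 FPKM in shRybp and 5.88 and 5.40 FPKM in control (log2 fold change -0.03, 95% interval -0.25 to 0.18, adjusted p = 0.82).

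Of 6 tested PAQR genes outside the members, 3 fell and 1 rose. Paqr7, a membrane progestin receptor, fell to 0.947 and 1.26 FPKM in shRybp, against 2.86 and 3.13 FPKM in control (log2 fold change -1.47, SE 0.16, adjusted p = 3.6e-05). Paqr8, another such receptor and far more abundant, fell to 32.4 and 33.9 FPKM in shRybp, against 53.9 and 47.5 FPKM in control (-0.65, SE 0.07, adjusted p = 3.1e-05). The differences of Paqr4 (-0.27, adjusted p = 0.011) and of the adiponectin receptor Adipor2 (0.18, adjusted p = 0.047) were small. Paqr4 missed the threshold at similar fold changes without shRybp 1 (-0.26, adjusted p = 0.056), without shRybp 2 (-0.28, adjusted p = 0.055) and without control 1 (-0.23, adjusted p = 0.067). Adipor2 missed it with any 1 library left out (0.13 to 0.22, adjusted p = 0.061 to 0.27) and with all 4 under DESeq2 (0.18, adjusted p = 0.12).

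Asrgl1 (chr19:9109868-9135636, minus strand) encodes an asparaginase that also cleaves isoaspartyl peptides, and does not act on lipids. It had 37.2 FPKM in shRybp 1 and 37.3 FPKM in shRybp 2, against 82.4 FPKM in control 1 and 85.5 FPKM in control 2. Replicates were close and the groups did not overlap, with a fitted level of 43.4% of control (log2 fold change -1.21, SE 0.06, 95% interval -1.33 to -1.08). Its like-library log2 differences were -1.19 for shRybp 2 over control 1 and -1.22 for shRybp 1 over control 2. Asns, which makes asparagine, went the other way and rose to 24.9 and 24.4 FPKM in shRybp, against 15.4 and 16.3 FPKM in control (0.60, SE 0.08, adjusted p = 1.1e-04). The lysosomal glycosylasparaginase Aga did not pass (-0.16, 95% interval -0.41 to 0.08, adjusted p = 0.29).

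Set in order of log2 fold change, each member was compared with the next. The 95% intervals of neighbours did not overlap between Apoe and Pla2g7, between Mmd2 and Npc1, or between Fabp7 and Npc2. Those of all other neighbours in the order overlapped. Such overlaps do not make groups, since the interval of Npc1 (-1.46 to -1.20) did not overlap that of Fabp7 (-0.78 to -0.44). In order of level, the control libraries ran from Fabp7 through Apoe, Fabp5, Asrgl1, Mmd2, Npc2, Pla2g7, Npc1 and Clu to Abca1, with overlapping values only for Npc2 and Pla2g7 among neighbours. The shRybp libraries ran from Fabp7 through Fabp5, Apoe, Asrgl1, Npc2, Mmd2, Clu, Pla2g7 and Npc1 to Abca1, with overlapping values for Apoe and Asrgl1 and for Clu and Pla2g7. Thus Apoe, which was above Asrgl1 in both control libraries, overlapped it in the shRybp libraries.

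**Figure D2:**
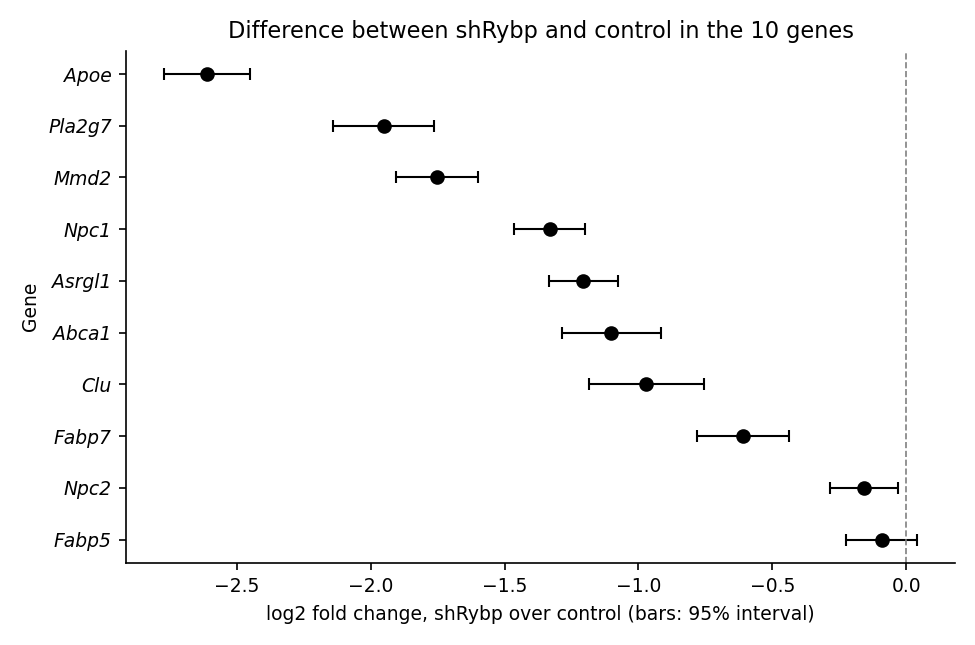
Log2 fold change of each member, shRybp over control, with its 95% interval from the edgeR fit (1 row per member, bars for the interval, dashed line at 0). The estimates run from -2.61 for Apoe to -0.09 for Fabp5, and only the interval of Fabp5 reaches 0.

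Over the 9 lists of related genes together, 183 genes outside the members were listed and 107 were tested. Of these, 30 fell (28.0%, beside 16.7% of all tested genes) and 21 rose (19.6%, beside 16.3%), with a median log2 fold change of -0.03. The members were chosen on this contrast, so their median is not set against this one. The lists, too, were written with earlier results of these data known. Without shRybp 2, 13 of the listed genes rose.

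**Figure D3:**
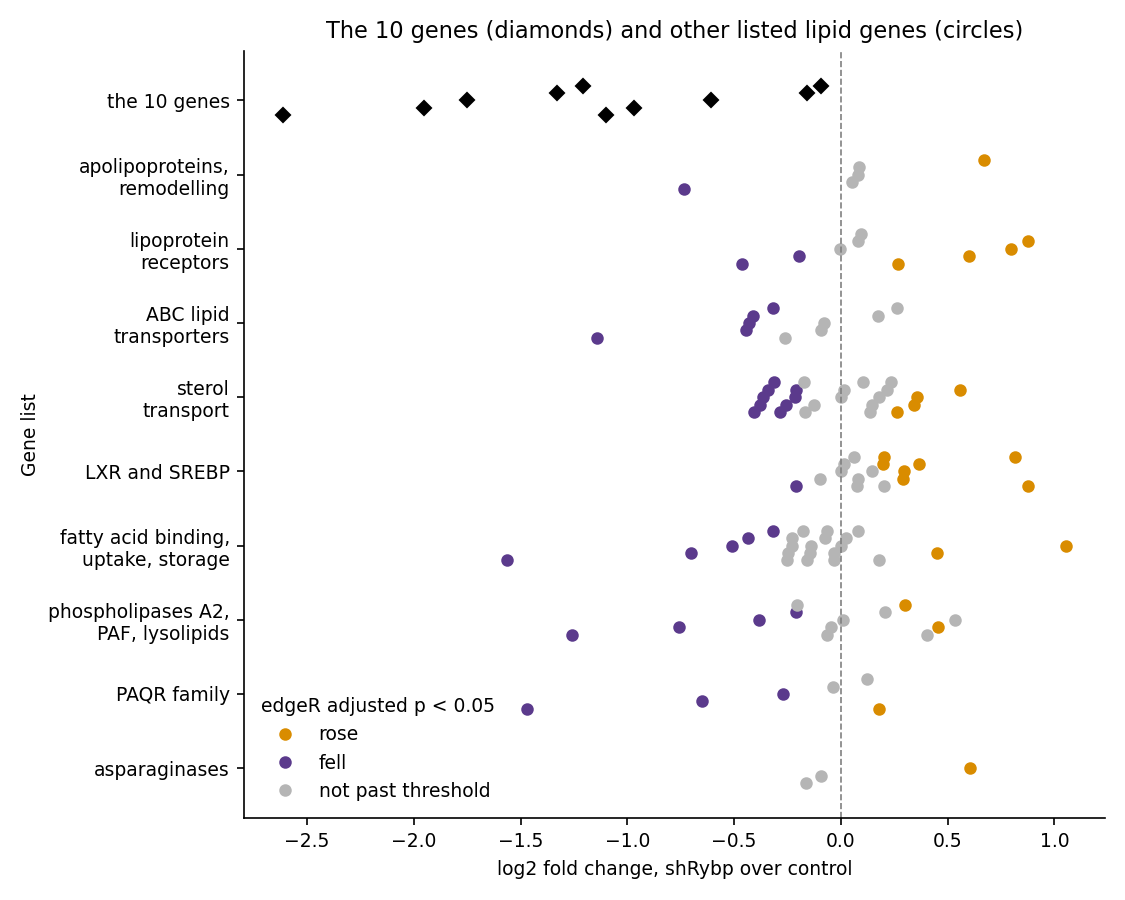
Log2 fold change, shRybp over control, of the 10 members (diamonds) and of every tested gene in the 9 lists of related genes (circles), coloured by whether it rose, fell or did not pass the edgeR threshold. By this fit the ABC transporters hold 5 genes that fell (2 under limma) and none that rose, while the LXR and SREBP list holds 7 that rose and 1 that fell.

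The tested genes nearest to the members on the chromosome were compared as a further description, since they were picked by position and not by their difference between the groups. Of the 20 nearest tested genes that do not overlap their member, 1 on each side, 5 fell (beside 16.7% of all tested genes). Another 2 rose and 13 did not pass, with a median log2 fold change of -0.13 over the 20. Rmc1, which overlaps Npc1, was left out by this rule. Untested genes were passed over, so the gaps ran from 0.1 to 478.91 kb. Among the genes that fell, Ephx2 lay 102.83 kb from Clu and Pag1 178.87 kb from Fabp5. Slc44a1 lay 280.52 kb from Abca1, and Tnfrsf21 478.91 kb from Pla2g7. Beside Apoe, Tomm40, an import pore of mitochondria that lies 2.12 kb away, rose (log2 fold change 0.36, SE 0.07, adjusted p = 0.0021), and Clptm1 on the other side had 0.00 (95% interval -0.14 to 0.14, adjusted p = 1). Beside Clu, the scavenger receptor family gene Scara3 rose (0.82, SE 0.12, adjusted p = 3.0e-04) and the epoxide hydrolase Ephx2 fell (-0.89, SE 0.22, adjusted p = 0.0079, against 0.071 under DESeq2). Isca2, an iron-sulfur cluster gene that lies 0.1 kb from Npc2 on the opposite strand, fell to 9.27 and 9.21 FPKM in shRybp, against 15.0 and 14.9 FPKM in control (-0.73, SE 0.09, adjusted p = 8.5e-05), while Npc2 itself did not pass. Tnfrsf21 on one side of Pla2g7 fell (-0.28, SE 0.06, adjusted p = 0.0041). Pag1 beside Fabp5 also fell (-0.63, SE 0.08, adjusted p = 8.7e-05), and Slc44a1 beside Abca1 fell (-0.27, SE 0.07, adjusted p = 0.0083), though not without shRybp 2 (-0.25, adjusted p = 0.071).

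**Figure D4:**
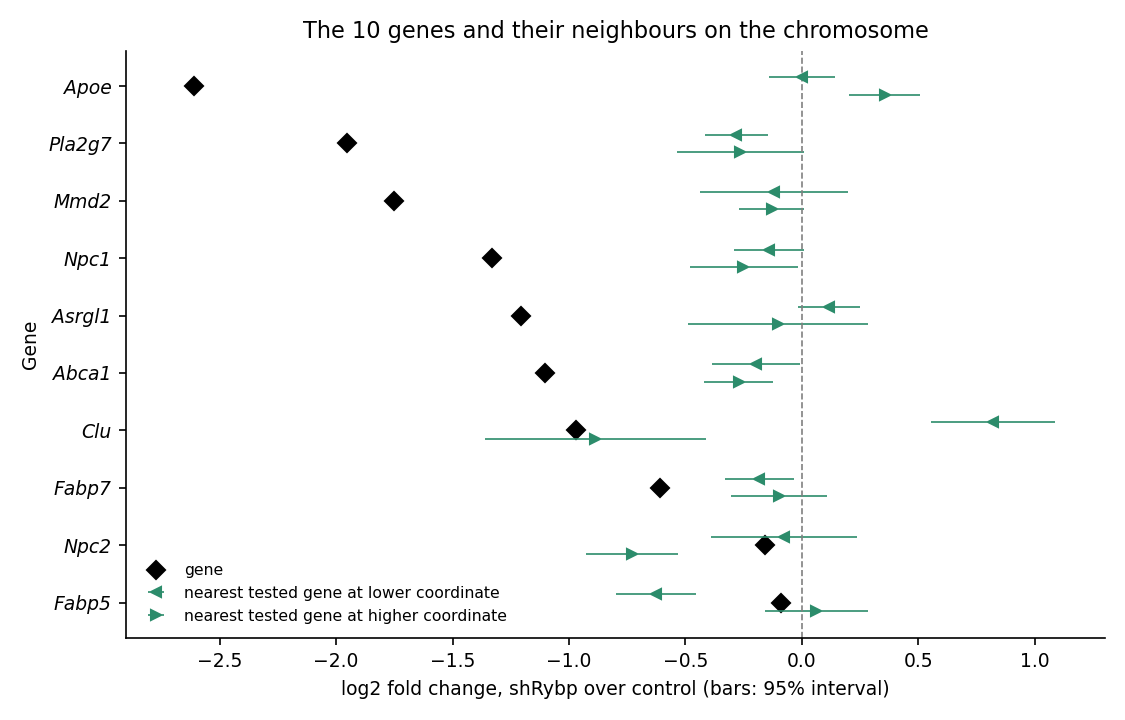
Log2 fold change, shRybp over control, of each member (diamond), with 1 row per member. Triangles show the nearest tested gene that does not overlap the member, at the lower and the higher coordinate (bars for the 95% interval). The neighbours lie between -0.89 and 0.82, and those of Apoe lie at 0.00 and 0.36 while Apoe lies at -2.61.

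The genes whose log2 levels over the 4 libraries lay closest to those of Apoe, each centred on its control mean, were Gpr17, Lims2, Pla2g7, Abhd3 and Ttyh1. This measure uses the same contrast, so closeness is a description over 4 libraries only. Gpr17, a receptor of oligodendrocyte precursors, had 3.67 and 2.96 FPKM in shRybp, against 17.2 and 19.5 FPKM in control (log2 fold change -2.51, distance 0.417). Lims2 (-2.16, distance 0.782) overlaps Gpr17 in the annotation, and reads of the pair cannot be told apart without strand information. Ttyh1, a membrane protein of neural progenitors and astrocytes, had 11.9 and 13.8 FPKM in shRybp, against 46.2 and 47.6 FPKM in control (-1.90, distance 1.00). Abhd3, a phospholipase of medium-chain phospholipids, had a log2 fold change of -1.93 at 1.00, and Pla2g7 lay between at 0.947.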

How the data were processed

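The deposited table holds raw counts per gene for 4 libraries and FPKM values, per the file headers; the counts were not normalized, and the FPKM values that the authors deposited differ from the counts by 1 factor per library and gene length (largest relative deviation 3.6e-08). Per the submitters' processing notes the genome was mm10, while the sources used here name no aligner, counting program or strand. Every gene in the table has at least 40 counts in total, so genes below that were not analysed here.

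Genes averaging an FPKM of 1 or more were fitted on their counts with edgeR 4.0.16 in R 4.3.3 (TMM factors, quasi-likelihood, two-sided F test, Benjamini-Hochberg over 12062 genes, threshold 0.05), after a test on simulated data. A standard error is the log2 fold change over the square root of F, and intervals cover 95%. Rose and fell mean past this threshold. Replicates differed by more than counting noise (chi-square per degree of freedom 4.37 in shRybp and 5.19 in control) and stayed separate.

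The members and the 9 pathway and 7 marker lists were chosen with earlier results of these data known. Genes named outside the members were a fixed set of lipid genes, up to 4 per pathway list with the largest change past the threshold, the 5 nearest to Apoe and the neighbours that passed; markers and Scd2 were picked after their values were seen. Some genes that this rule names are not reported here. Overlaps and positions came from GENCODE M21 on the same build, and promoter windows from RefSeq GRCm38.p6. Results were also computed under 12 other settings, with limma 3.58.1 and DESeq2 1.42.0 among them, and between like libraries, which was added after seeing the data.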

Additional observations from a re-analysis of the deposited data

How the results depend on the processing

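Over 12 other settings, members gave 120 values, of which 118 kept direction and side of the threshold and 2 passed it newly, both of Npc2 (with the replicate block and at a mean FPKM of at least 5). Apoe ranged from a log2 fold change of -2.72 to -2.52 and Fabp7 from -0.70 to -0.52. Among 74 named genes outside the members, 864 values gave 43 lost calls and 10 new ones; no called gene changed sign, and 30 values of genes that had not passed did, such as those of Pltp (-0.23 to 0.45) and Vldlr (-0.14 to 0.13). Leaving out 1 library in turn gave 1296 to 1640 genes that rose (1296 without shRybp 2) and 13 to 20 listed lipid genes that rose. At a mean FPKM of at least 5, 11 listed lipid genes rose, and under limma 19 fell with a pseudocount of 1 and 19 with 0.1. Library totals without TMM turned the split to 2361 genes that rose and 1718 that fell, beside 1970 and 2013, with a median log2 fold change of 0.04. DESeq2 called 1371 rises and 1447 falls. Replicate numbers are shared, but the labels do not pair them and the correlation of same-numbered deviations was 0.1; with the replicate block 2676 genes rose and 2652 fell. The cause of these differences was not tested. Genes under a mean FPKM of 1, such as Nr1h3 and Abcg1, were not tested.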
